A study of Mus musculus with 12 samples.

Results

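The genes described here carry long-chain fatty acids into muscle, move them into mitochondria and break them down there. They are Cd36, Cpt1a, Cpt1b, Cpt2, Acadm, Acadl, Acadvl, Hadha, Hadhb and Pdk4, chosen by name and not by how they changed. A gene was read from a probe set that the platform annotation pairs with 1 symbol, and from the brightest such probe set over all 12 arrays. By that rule 9 of the 10 genes were measured, out of 19938 genes in all, while Cpt1b lay only on a probe set that also lists Gm44502 and was not analysed here. RNA came from the quadriceps, a large thigh muscle, of C57Bl/6 mice at day 7, and each mouse had 1 Affymetrix Mouse Gene ST array. Of these arrays 6 were labelled KO, the label for mice null for cofilin-2, an actin-severing protein of skeletal muscle. The other 6 were labelled WT, the label for wildtype littermates. The Cfl2 levels given below go against these labels. By the study's account the mutants become weak soon after birth and die at about this age, so that the muscle was taken near the end of their lives. The labels give neither the sex of the mice nor the part of Cfl2 that was removed.

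Fatty acids reach a muscle fibre from lipoproteins or from albumin in blood, and CD36 at the cell surface helps them enter. After coupling to coenzyme A they are passed to carnitine by CPT1 at the outer mitochondrial membrane, carried across the inner membrane, and handed back to coenzyme A by CPT2. Each turn of beta-oxidation then starts with an acyl-CoA dehydrogenase fitted to the chain length and goes on, for long chains, in the trifunctional protein built from HADHA and HADHB. PDK4 phosphorylates and shuts off pyruvate dehydrogenase, which holds back the burning of carbohydrate while fat is burned. Its gene is known for its response to fasting and to glucocorticoids. In mice these genes are known to become more active in muscle and heart around birth, when milk fat becomes the main fuel, and PPAR and estrogen-related receptors are known to drive many of them.

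The array labels have to be read with care, because Cfl2 itself went against them. The Cfl2 probe set was at 12.31 to 12.43 on the arrays labelled KO, with a median of 12.40, against 4.92 to 7.71 with a median of 6.06 on those labelled WT. All values are log2 levels. The difference was 6.32 ± 0.36 (labelled KO minus labelled WT, SE, limma adjusted p = 1.98e-07), an 80.0-fold higher level on the arrays labelled KO. This is opposite to what the labels name, and to the direction that the study gives for Cfl2. The study also reports Ucp1 and Lep as lowered in the knockout. Here both were higher on the arrays labelled KO (2.75 ± 0.60 and 2.12 ± 0.36). No array was moved, and every direction below is that of the labels as deposited. It cannot be read as the direction of the genotype. Array medians were 6.35 to 6.41 for labelled KO and 6.42 to 6.46 for labelled WT, and the labels give no batch. Markers of skeletal muscle fibres were bright in both groups, with a mean level of 12.84 to 13.00 on the arrays labelled KO and 12.75 to 12.97 on those labelled WT over 12 genes. Of these genes 8 were lower and 2 higher (median -0.14), the higher ones being the fast fibre genes Myh4 (1.70 ± 0.27) and Actn3 (0.54 ± 0.07), and 3 were lower and 2 higher once each array was centred on its median.

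The promoters of the 4 genes past the test, and of Hadhb, whose start lies 272 bases from that of Hadha on the opposite strand, are shown because the nuclear receptors that drive this pathway are known to bind a short motif. The sequences are the 250 bases before the first transcribed base in RefSeq on GRCm38.p6, written along the strand of the gene. Capitals mark the nuclear receptor half-site AGGTCA and the GC box GGGCGG, bound by SP1 and its relatives, on either strand (TGACCT and CCGCCC). The windows are chr4:107923590-107923839 (minus strand) for Cpt2, chr3:153944644-153944893 (minus) for Acadm, chr1:66863310-66863559 (minus) for Acadl, chr6:5496279-5496528 (minus) for Pdk4 and chr5:30155003-30155252 (plus) for Hadhb.
Cpt2: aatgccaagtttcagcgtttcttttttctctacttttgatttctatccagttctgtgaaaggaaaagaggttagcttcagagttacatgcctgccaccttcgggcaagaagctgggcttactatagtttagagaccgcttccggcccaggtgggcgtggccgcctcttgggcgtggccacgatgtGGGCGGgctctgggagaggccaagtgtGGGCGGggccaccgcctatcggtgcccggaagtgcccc
Acadm: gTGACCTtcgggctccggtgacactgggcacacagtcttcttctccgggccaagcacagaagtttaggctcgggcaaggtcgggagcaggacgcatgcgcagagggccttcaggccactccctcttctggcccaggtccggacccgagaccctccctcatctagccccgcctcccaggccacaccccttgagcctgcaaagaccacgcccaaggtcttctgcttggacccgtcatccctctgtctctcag
Acadl: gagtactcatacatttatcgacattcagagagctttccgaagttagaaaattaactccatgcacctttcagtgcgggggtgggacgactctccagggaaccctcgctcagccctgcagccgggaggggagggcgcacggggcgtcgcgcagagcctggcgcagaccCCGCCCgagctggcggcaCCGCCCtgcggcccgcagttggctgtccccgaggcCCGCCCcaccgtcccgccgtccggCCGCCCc
Pdk4: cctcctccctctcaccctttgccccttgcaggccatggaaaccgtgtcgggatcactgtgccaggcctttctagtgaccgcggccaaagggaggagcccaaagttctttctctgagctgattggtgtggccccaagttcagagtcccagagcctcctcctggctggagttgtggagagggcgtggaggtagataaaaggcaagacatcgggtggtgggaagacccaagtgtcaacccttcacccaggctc
Hadhb: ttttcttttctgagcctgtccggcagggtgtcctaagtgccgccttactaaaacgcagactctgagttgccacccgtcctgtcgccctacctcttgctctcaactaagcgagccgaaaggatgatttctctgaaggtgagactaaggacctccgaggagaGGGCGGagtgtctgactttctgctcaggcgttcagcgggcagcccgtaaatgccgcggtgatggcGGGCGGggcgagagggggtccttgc

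All 9 measured genes had an entry in the promoter table of 32851 promoters. The half-site was found in 4 of the 9, against 14.0% of all promoters of that length. It lay 249 bases before the start in Acadm, 87 in Acadvl, 228 in Cd36 and 94 in Cpt1a. The GC box was found in 6 of the 9, against 32.7% of all promoters, with 4 copies in Acadl, 2 in each of Cpt2, Hadhb, Cpt1a and Cd36, and 1 in Hadha. The windows of Hadha and Hadhb overlap over most of their length. The GC box of Hadha, 188 bases before its start, is the same stretch as that 90 bases before the start of Hadhb. The count of 6 therefore holds 1 site under both genes. Neither the estrogen-related receptor site TCAAGGTCA nor the direct repeat AGGTCANAGGTCA, both of which contain the half-site, was in any of the 9 windows, and they were in 0.387% and 0.0335% of all promoters. The forkhead site GTAAACA was in 0 of the 9 windows and in 3.17% of all promoters. Of the genes past the test, Cpt2 and Acadl carried GC boxes, Acadm carried a half-site and Pdk4 carried none of the motifs searched. A match here is a run of letters and not a binding site, and sites outside the window were not searched.

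Cpt2 and Acadm were higher on the arrays labelled KO, Acadl and Pdk4 were lower, and the 5 other genes did not pass the test. Thus 4 of the 9 passed an adjusted p of 0.05 (limma, adjusted over 21789 probe sets), where 31.9% of all genes passed (20.1% higher and 11.8% lower). The groups of 6 arrays did not overlap for the same 4 genes, where this held for 15.4% of all genes (10.7% higher and 4.69% lower). By the methods' t-test 4 of the 9 passed after Benjamini-Hochberg adjustment and 5 did without it, Cpt1a being the one added, where 29.1% and 41.3% of all probe sets passed. The median difference was -0.08 over the 9 genes and -0.01 over all genes, and the median size of a difference, whatever its sign, was 0.16 against 0.11. The genes lie among the brightest on the array, since the dimmest of the 9 averaged 10.03 and 90.0% of genes had a mean below it. The shares over all genes include dim ones. With probe sets below the 0.25 quantile of mean level left out, 41.9% of the rest passed in limma, and 5 of the 9 genes did, Cpt1a being added.

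**Figure D1:**
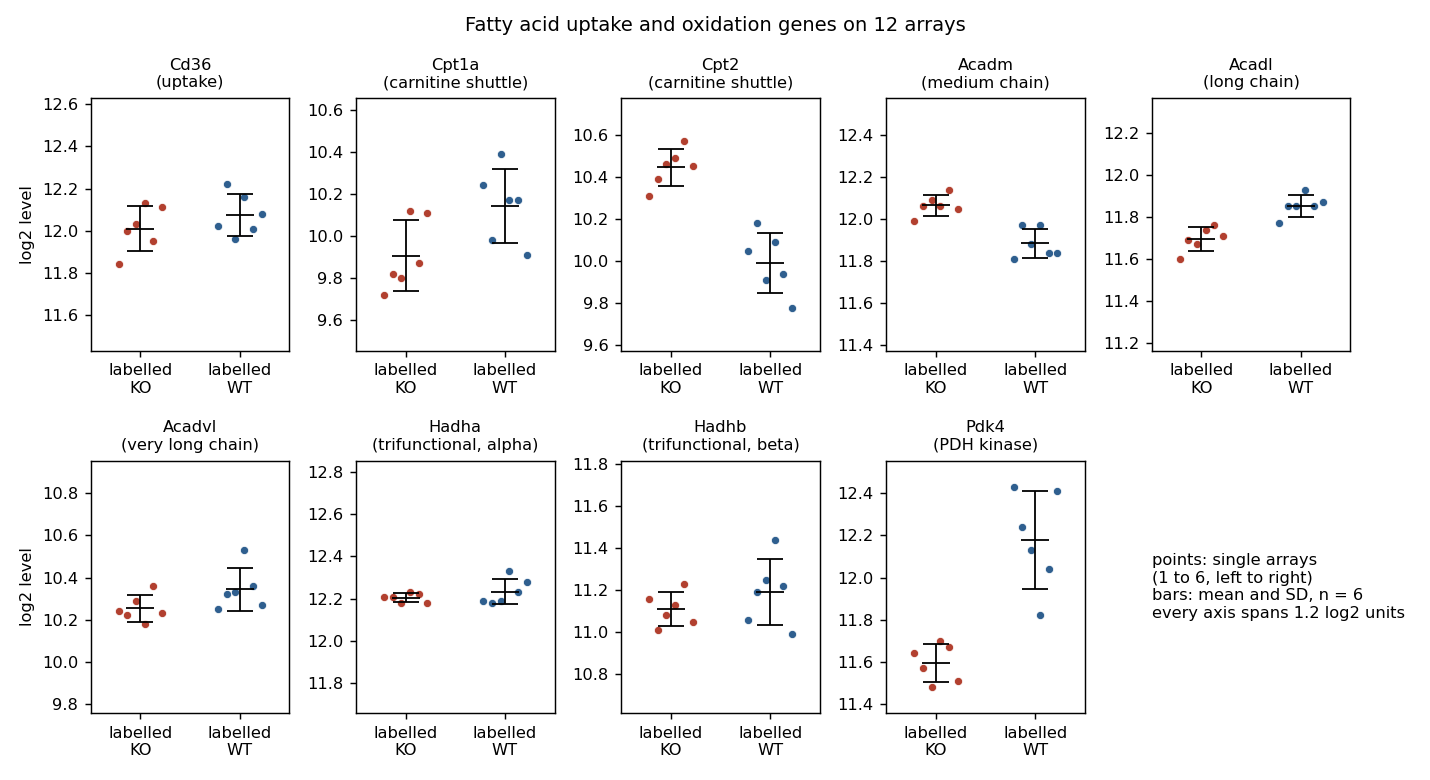
Log2 level of the 9 measured genes on each array (points), labelled KO left and labelled WT right in each panel, with bars for the mean and SD of 6 arrays and every axis spanning 1.2 log2 units. Cpt2 and Acadm sit higher and Acadl and Pdk4 lower on all arrays labelled KO than on any labelled WT, and the other panels overlap.

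Uptake was represented by Cd36, the membrane protein that takes up long-chain fatty acids in muscle, fat and capillary endothelium. Its level was 11.84 to 12.13 with a median of 12.02 on the arrays labelled KO, against 11.96 to 12.22 with a median of 12.05 on those labelled WT. The groups overlapped widely. The difference was -0.07 ± 0.06 (95% interval -0.19 to 0.06, adjusted p = 0.421), so that a change of more than 0.19 in size lay outside the interval.

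Entry into mitochondria was represented by Cpt1a and Cpt2. Since Cpt1b was not analysed, the CPT1 step was read only in part. Cpt1a encodes the outer membrane carnitine palmitoyltransferase best known from liver, which malonyl-CoA inhibits. It was at 9.72 to 10.12 with a median of 9.84 on the arrays labelled KO, against 9.91 to 10.39 with a median of 10.17 on those labelled WT. On 4 of the 6 arrays labelled KO it was below every array labelled WT, while KO4 and KO6 (10.12 and 10.11) lay among them. The difference was -0.24 ± 0.09 (95% interval -0.43 to -0.04), with an adjusted p of 0.0582. It was close to the threshold, and 10 alternatives, among them runs without 1 array, put it past while 17 did not. The lowest adjusted p was 0.0194, when arrays were weighted by their quality. Median centring gave -0.19 (limma adjusted p = 0.131), and a block for the array number gave an adjusted p of 0.107.

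Cpt2 encodes the inner membrane enzyme that returns the acyl group to coenzyme A. Its level was 10.31, 10.39, 10.46, 10.49, 10.57 and 10.45 on the arrays labelled KO1 to KO6, against 10.05, 10.18, 9.91, 10.09, 9.94 and 9.78 on those labelled WT1 to WT6. The lowest array labelled KO was above the highest labelled WT. The means were 10.45 ± 0.09 and 9.99 ± 0.14 (labelled KO and labelled WT, SD, n = 6 each), a difference of 0.45 ± 0.07 or 1.37-fold (limma adjusted p = 0.000181). Between the steps of the shuttle, Slc25a20, the carnitine-acylcarnitine carrier of the inner membrane, differed by 0.12 ± 0.05 and did not pass (adjusted p = 0.121).

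The chain-length dehydrogenases did not move together. Acadm, the medium-chain enzyme, was at 11.99 to 12.14 with a median of 12.06 on the arrays labelled KO, against 11.81 to 11.97 with a median of 11.86 on those labelled WT. The gap between the groups was narrow but complete. The means were 12.06 ± 0.05 in labelled KO and 11.88 ± 0.07 in labelled WT, a difference of 0.18 ± 0.04 or 1.13-fold (limma adjusted p = 0.00486).

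Acadl, the long-chain enzyme, went the other way. It was at 11.60 to 11.76 with a median of 11.70 on the arrays labelled KO, against 11.77 to 11.93 with a median of 11.85 on those labelled WT. The highest array labelled KO (KO5, 11.76) was just under the lowest labelled WT (WT1, 11.77). The difference was -0.16 ± 0.04, a ratio of 0.896 (limma adjusted p = 0.00761). Acadvl, the very-long-chain enzyme bound to the inner membrane, was at 10.18 to 10.36 on the arrays labelled KO and 10.25 to 10.53 on those labelled WT. These overlapped, and its difference of -0.09 ± 0.05 did not pass (95% interval -0.20 to 0.02, adjusted p = 0.191).

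Because a rise in one dehydrogenase and a fall in another could each be small, the genes of a step were also compared within arrays. For each array the log2 difference of the pair was taken, set to a mean of 0 over the arrays labelled WT, and compared between groups with a two-sided exact permutation test, whose smallest possible p is 0.00216. Of the pairs planned, 4 could be tested. Acadm minus Acadl lay at 0.29 to 0.39 on the arrays labelled KO and -0.06 to 0.09 on those labelled WT, a difference of 0.34 ± 0.03 (exact p = 0.00216, 0.00433 adjusted over the 4 pairs). Acadm relative to Acadl was thus higher on all 6 arrays labelled KO than on any labelled WT. This had to be so, since Acadm was higher and Acadl lower on these arrays, each without overlap. The exact p of this pair was fixed by that and adds no separate support.

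Against Acadvl, whose own levels overlapped between the groups, Acadm was set apart as well. Acadm minus Acadvl lay at 0.21 to 0.34 on the arrays labelled KO and -0.10 to 0.11 on those labelled WT, differing by 0.27 ± 0.04 (exact p = 0.00216, adjusted 0.00433). Acadl minus Acadvl, by contrast, differed by -0.07 ± 0.04, and its values overlapped between the groups (exact p = 0.13, adjusted 0.173). These pairs share genes and are not independent of the gene by gene results.

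**Figure D2:**
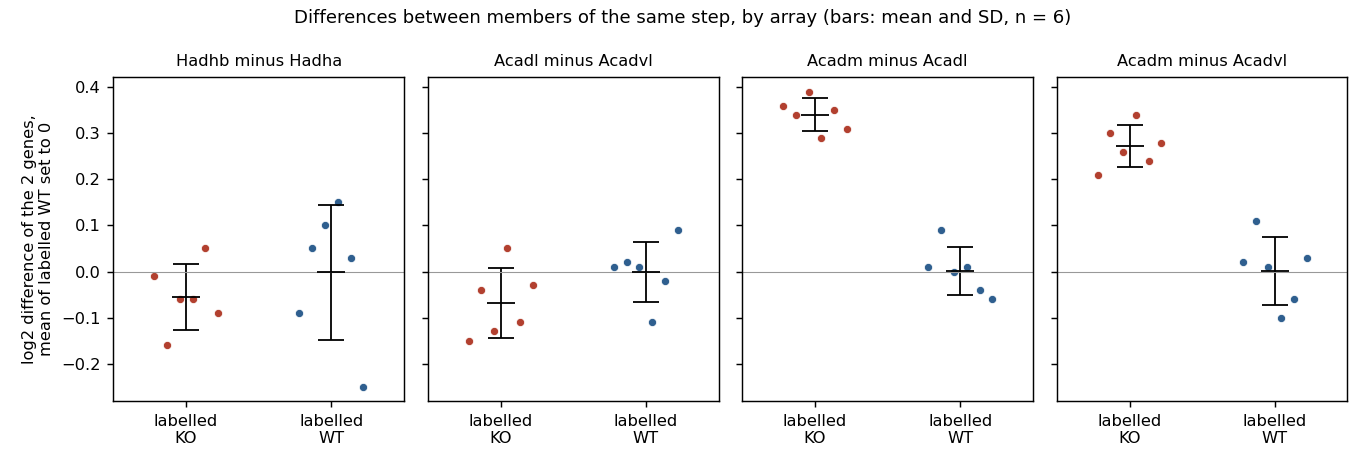
Log2 difference of 2 genes of the same step on each array (points), with the mean of labelled WT set to 0 and bars for the mean and SD of 6 arrays, labelled KO left. Acadm minus Acadl and Acadm minus Acadvl lie apart in the groups, at 0.29 to 0.39 and 0.21 to 0.34 on the arrays labelled KO, while the points of the other pairs overlap.

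The trifunctional protein, which carries out the last reactions of each turn on long chains, showed no difference past the test in either subunit. Hadha, the alpha subunit with hydratase and dehydrogenase activity, was at 12.18 to 12.23 on the arrays labelled KO and 12.18 to 12.33 on those labelled WT. Its difference was -0.03 ± 0.04 (95% interval -0.11 to 0.05, adjusted p = 0.585), and it was 0.02 when each array was centred on its median, so that no direction can be given. Hadhb, the beta subunit with thiolase activity, was at 11.01 to 11.23 on the arrays labelled KO and 10.99 to 11.44 on those labelled WT. The groups overlapped over nearly their whole range. Its difference was -0.08 ± 0.07 (95% interval -0.23 to 0.06, adjusted p = 0.382), and the second Hadhb probe set gave -0.09. Hadhb minus Hadha within arrays differed by -0.05 ± 0.07 (exact p = 0.459), also overlapping. The head to head pair therefore gave no difference past the test, within intervals that reach 0.11 in size for Hadha and 0.23 for Hadhb.

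Pdk4 was the gene with the widest range among the 9. It was at 11.64, 11.57, 11.48, 11.70, 11.67 and 11.51 on the arrays labelled KO1 to KO6, against 12.43, 12.24, 12.13, 11.82, 12.04 and 12.41 on those labelled WT1 to WT6. The arrays labelled KO were close together, and those labelled WT were spread out above them, with WT4 nearest. The means were 11.60 ± 0.09 in labelled KO and 12.18 ± 0.23 in labelled WT, a difference of -0.58 ± 0.09 or a ratio of 0.667 (limma adjusted p = 0.000334).

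Genes known to respond to glucocorticoids and fasting were read from a list of 14 that does not hold Pdk4. Of these, 7 were lower, 0 were higher and 7 did not pass, with a median difference of -0.59, where 11.8% of all genes were lower and the median over all genes was -0.01. With the adipocyte level as a covariate 2 of the 14 were lower, where 12.9% of all probe sets passed in either direction. With the endothelial level 1 was lower and the median turned to 0.20, where 6.23% of all probe sets passed. Zbtb16, a transcription factor gene that glucocorticoids induce, differed by -1.64 ± 0.21 (adjusted p = 7.09e-05), Fkbp5, encoding a chaperone partner of the glucocorticoid receptor, by -1.43 ± 0.43 (0.0204), Fbxo32, encoding the muscle ubiquitin ligase atrogin-1, by -1.41 ± 0.31 (0.00382), and Per1, a clock gene, by -1.14 ± 0.19 (0.000442). The mean level of the list was 8.50 to 8.73 on the arrays labelled KO and 8.73 to 9.94 on those labelled WT.

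The arrays labelled WT1, WT2 and WT6 had the 3 highest levels of this list (9.42, 9.76 and 9.94) and also the 3 highest Pdk4 levels (12.43, 12.24 and 12.41). On WT3, WT4 and WT5 the list was at 8.78, 8.73 and 8.94 and Pdk4 at 12.13, 11.82 and 12.04. Such an order was not seen among the arrays labelled KO. There the list was at 8.73, 8.59, 8.50, 8.61, 8.53 and 8.65 on KO1 to KO6. Pdk4 was at 11.64, 11.57, 11.48, 11.70, 11.67 and 11.51 on the same arrays. With the level of the list as a covariate the Pdk4 difference was -0.35 (limma adjusted p = 0.025), smaller than without it and still past the test. Time of day, feeding and handling before collection are not given in the labels, and their part in this difference was not tested.

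**Figure D3:**
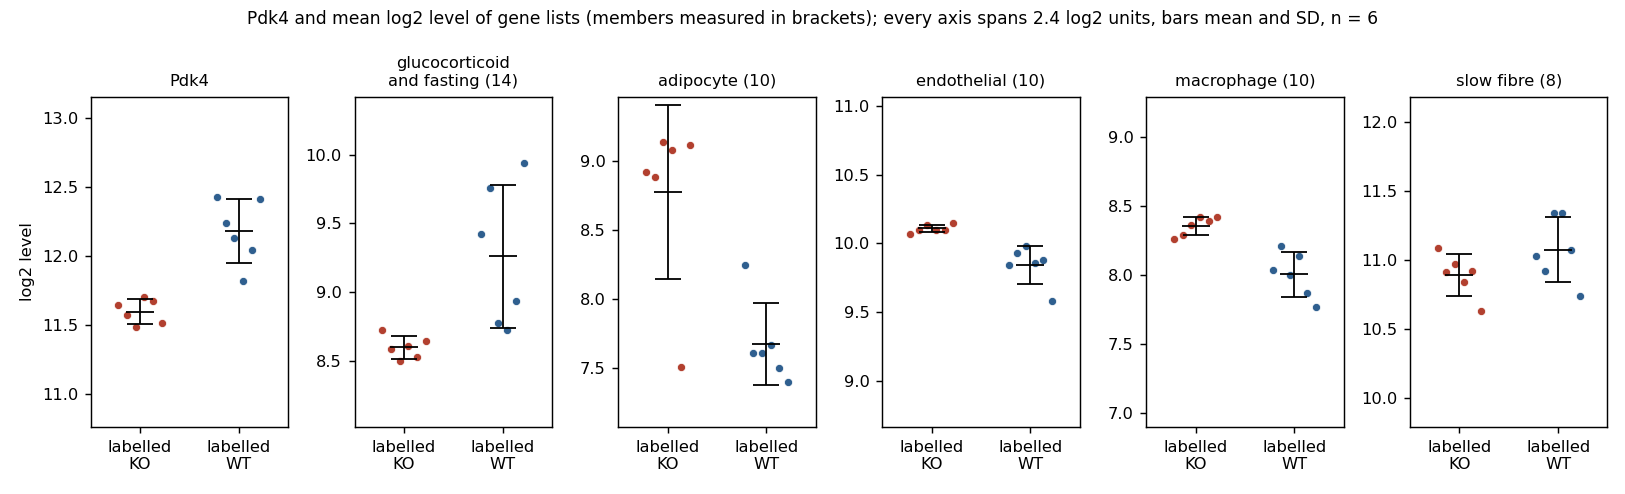
Log2 level of Pdk4 and mean log2 level of 5 gene lists on each array (points), labelled KO left, with bars for the mean and SD of 6 arrays and every axis spanning 2.4 log2 units. Pdk4 and the glucocorticoid and fasting list are lower and less spread on the arrays labelled KO, the endothelial and macrophage lists are higher without overlap, and array KO5 (7.51) stands apart from the others labelled KO in the adipocyte list.

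Muscle holds other cells that burn or store fat, and in whole tissue a change in the number of such cells and a change in RNA per cell cannot be told apart. Adipocyte markers had a mean level of 7.51 to 9.14 on the arrays labelled KO and 7.40 to 8.25 on those labelled WT (6 of 10 higher, 0 lower), with KO5 at 7.51. Endothelial markers were at 10.07 to 10.15 on the arrays labelled KO and 9.58 to 9.98 on those labelled WT (7 of 10 higher, 0 lower), and macrophage markers at 8.26 to 8.42 in labelled KO and 7.77 to 8.21 in labelled WT (7 of 10 higher, 0 lower). Slow fibre markers, read because oxidative fibres use more fat, were at 10.63 to 11.09 in labelled KO and 10.74 to 11.34 in labelled WT (2 of 8 higher, 4 lower). No marker has a level of 0 on this scale. Their part in the differences was examined only through the covariates that follow.

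With the endothelial level as a covariate, 0 of the 9 genes passed in limma, with 5 at an unadjusted p under 0.05 (Cpt1a, Cpt2, Acadl, Hadhb and Pdk4). Among all probe sets 6.23% passed in that fit, against 31.9% without the covariate, so that calls were lost across the whole array. Cpt2 then differed by 0.29 (adjusted p = 0.122), Acadm by 0.13 (0.331), Acadl by -0.16 (0.211) and Pdk4 by -0.36 (0.174). The endothelial level did not overlap between the groups, so that it and the label carry much of the same information. With the adipocyte level as a covariate Acadl lost its call (-0.10, adjusted p = 0.379) and the other 3 kept theirs, where 12.9% of all probe sets passed. With the glucocorticoid and fasting list, a covariate chosen after seeing the data, Acadm lost its call (0.16, adjusted p = 0.0989), where 13.8% of all probe sets passed. Cpt1a gained a call in that fit (-0.41, limma adjusted p = 0.0238). It did not pass with the endothelial level (-0.48, 0.0591), the adipocyte level (-0.34, 0.157) or the slow fibre level (-0.21, 0.132), the last also chosen after seeing the data. Without arrays KO5 and WT4, also chosen after seeing the data, Cpt2, Acadm, Acadl and Pdk4 all stayed past the test, at 0.45, 0.18, -0.16 and -0.67.

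The rest of the pathway was read from 11 lists that hold 119 other measured genes. Of these, 41 were higher and 15 lower (34.5% and 12.6%), where 20.1% and 11.8% of all genes were. With dim probe sets left out as above 42 were higher and 15 lower, where 41.9% of the remaining probe sets passed in either direction. Centring each array on its median gave 57 higher and 8 lower, and among all probe sets that centring moved the share of higher calls to 77.8%, against 61.1% without it. With the adipocyte level as a covariate 21 were higher and 3 lower, and with the endothelial level 9 and 3. In these fits 12.9% and 6.23% of all probe sets passed in either direction. The covariate counts of the single lists below are to be read beside these shares. The lists were chosen with earlier results of these data known.

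**Figure D4:**
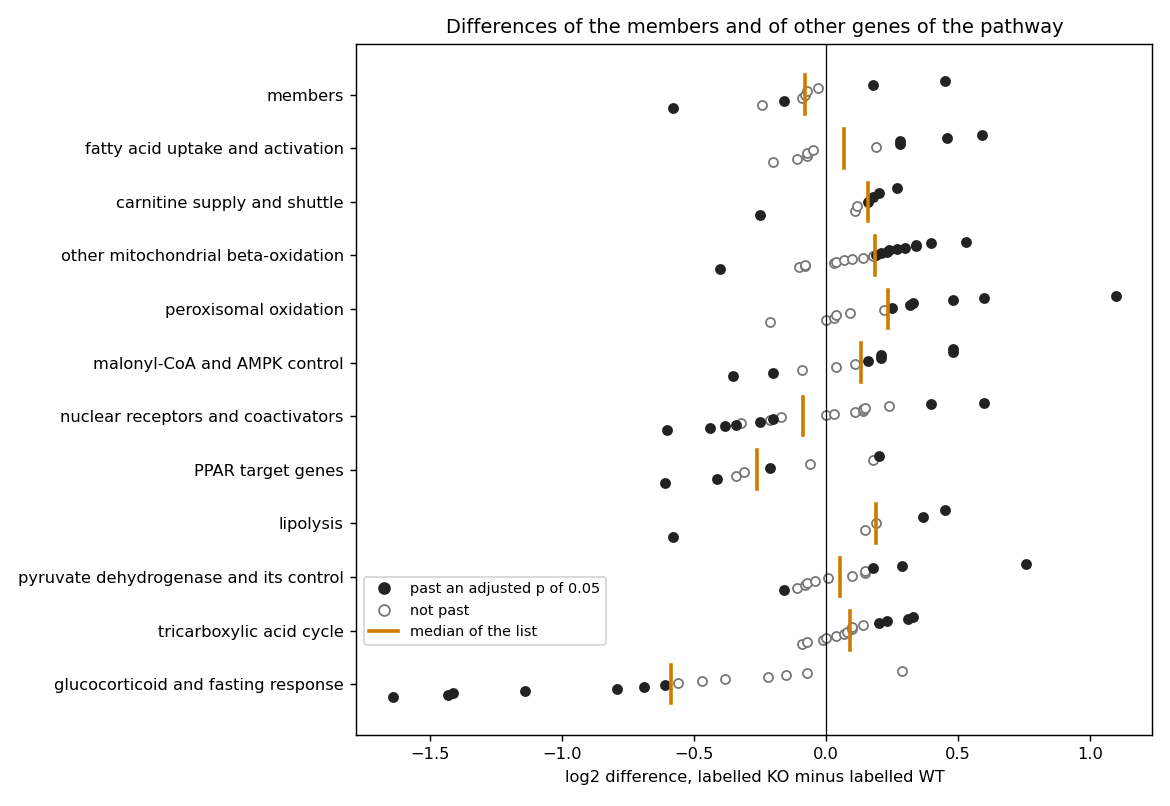
Log2 difference, labelled KO minus labelled WT, of each gene (points) in the members, 10 of the pathway lists and the glucocorticoid and fasting list, filled where the adjusted p is under 0.05, with the median of each list as a bar. The medians of peroxisomal (0.24) and other mitochondrial beta-oxidation (0.19) lie above 0, and that of the glucocorticoid and fasting list lies at -0.59.

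Genes for uptake and activation gave 4 higher, 0 lower and 6 that did not pass, with a median of 0.07. Cav1, encoding the caveolar coat protein abundant in endothelium and fat, differed by 0.59 ± 0.10 (adjusted p = 0.000713), and Acsl5, which couples fatty acids to coenzyme A, by 0.46 ± 0.11 (0.00622). Lpl, the lipase that frees fatty acids from lipoproteins, differed by 0.28 ± 0.08 (0.0151). Gpihbp1, which holds that lipase on capillary endothelium, also differed by 0.28 ± 0.09 (0.0336). Fabp3, the muscle fatty acid binding protein, differed by -0.11 ± 0.05 and did not pass (0.111). With the adipocyte level as a covariate 0 of the 10 genes were higher and 0 lower in limma, so that all 4 calls were lost (2 genes, Cav1 and Acsl5, had an unadjusted p under 0.05), and with the endothelial level 1 was higher and 1 lower.

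In carnitine supply and the shuttle 4 genes were higher and 1 lower, with 2 that did not pass, beside 20.1% higher and 11.8% lower among all genes. Centring each array on its median gave 6 higher and 0 lower. With the adipocyte covariate 1 was higher and 0 lower, and with the endothelial one 0 and 0. The higher ones included Aldh9a1 (0.27 ± 0.08, adjusted p = 0.0163), an enzyme of carnitine synthesis, and Slc22a5 (0.20 ± 0.06, 0.0178), the plasma membrane carnitine transporter. Cpt1c, the brain form of CPT1, was higher at 0.18 ± 0.05 (0.0213). The related transporter gene Slc22a4 was lower at -0.25 ± 0.09 (0.0387), a call that centring and both covariates ended.

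The list of other mitochondrial beta-oxidation, 20 genes in all, gave 10 higher, 1 lower and 9 that did not pass, with a median of 0.19. With the adipocyte covariate 8 were higher and with the endothelial one 1. Where in the cell each protein of this list lies was not examined, and some, such as that of Acad11, may be peroxisomal. Acads, the short-chain dehydrogenase, was at 10.35 to 10.61 on the arrays labelled KO and 9.70 to 10.05 on those labelled WT, differing by 0.53 ± 0.07 (1.44-fold, limma adjusted p = 7.62e-05). Hadh, the dehydrogenase for medium and short hydroxyacyl chains, was at 12.52 to 12.67 on the arrays labelled KO and 12.13 to 12.38 on those labelled WT, differing by 0.34 ± 0.05 (0.000105).

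Further along, Acaa2, the thiolase for shorter chains, differed by 0.30 ± 0.05 (adjusted p = 0.000313), and Acat1, which splits acetoacetyl-CoA, by 0.34 ± 0.06 (0.00127). Of the other acyl-CoA dehydrogenases, Acad11, which acts on longer chains, differed by 0.40 ± 0.10 (0.00991) and Acad9, a relative of Acadvl also needed to assemble complex I, by 0.21 ± 0.04 (0.00164). Acadsb, for short branched chains, did not pass (0.10 ± 0.11, 0.555). The gene that was lower was Acot2, a mitochondrial thioesterase, at -0.40 ± 0.08 (0.00186). Acot2 and its neighbour Acot1 are near copies, and their probe sets may not tell them apart.

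Peroxisomes shorten very long chains before mitochondria take over, and 6 of the 12 peroxisomal genes were higher, 0 were lower and 6 did not pass, while 5 were higher with the adipocyte covariate and 2 with the endothelial one. Abcd2, a peroxisomal transporter of very-long-chain acyl-CoA, was at 9.45 to 9.75 on the arrays labelled KO and 8.25 to 8.85 on those labelled WT. Its difference of 1.10 ± 0.10 (2.14-fold, adjusted p = 6.01e-06) was the largest among the 119 pathway genes. Crot, which passes shortened chains to carnitine, differed by 0.60 ± 0.10 (0.000403), Hsd17b4, the D-bifunctional protein of this route, by 0.48 ± 0.07 (0.000117) and Decr2, the reductase for double bonds, by 0.33 ± 0.06 (0.000822). Ehhadh, the L-bifunctional enzyme, ranged from 6.85 to 8.77 over the arrays labelled WT and did not pass (-0.21 ± 0.27, adjusted p = 0.582).

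Malonyl-CoA is the brake on CPT1, and 5 of the 10 genes of its making, its removal and AMPK were higher and 2 lower. With the adipocyte covariate 1 was higher and 0 lower, and with the endothelial one 1 and 1. Acaca, the acetyl-CoA carboxylase of fat synthesis, was higher (0.48 ± 0.13, adjusted p = 0.00984). Acacb, the mitochondrial form known to act on CPT1 in muscle, was lower (-0.20 ± 0.07, 0.0443), as was Mlycd, the decarboxylase that removes malonyl-CoA (-0.35 ± 0.07, 0.00154). Among AMPK subunits, Prkag3, the skeletal muscle gamma subunit, was higher (0.48 ± 0.08, 0.000358), as was Prkag2 (0.21 ± 0.06, 0.017).

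Of the 18 nuclear receptors, coactivators and related regulators, 2 were higher and 6 lower, and 2 were higher and 2 lower once each array was centred on its median. With the adipocyte covariate 1 was higher and 0 lower, and the endothelial one gave the same counts. All 6 lower calls were thus lost in both fits. Klf15, a glucocorticoid-induced regulator of lipid use, differed by -0.60 ± 0.21 (adjusted p = 0.0398), Foxo3 by -0.44 ± 0.14 (0.0271) and Foxo1, known to activate Pdk4, by -0.38 ± 0.10 (0.00792). Ppargc1b, a coactivator of oxidative genes, was lower at -0.34 ± 0.10 (0.024), and Esrra, the estrogen-related receptor alpha, at -0.25 ± 0.07 (0.015). Rxrg, a partner of PPARs, was higher at 0.60 ± 0.11 (0.000784), and Tfeb, the lysosomal regulator, at 0.40 ± 0.05 (8.58e-05). Ppara, Ppard, Pparg and Ppargc1a, the receptors and the coactivator best known for this pathway, did not pass.

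Other genes known as PPAR targets gave 1 higher and 3 lower of 8, with a median of -0.26. With the adipocyte covariate 0 were higher and 1 lower, and with the endothelial one 0 and 0. Acot1, a cytosolic thioesterase, differed by -0.61 ± 0.17 (adjusted p = 0.0136), Txnip, which restrains glucose uptake, by -0.41 ± 0.10 (0.00672) and Fgf21, encoding a fasting hormone, by -0.21 ± 0.05 (0.0045). Fgf21 was dim, at 5.82 to 6.05 on the arrays labelled KO and 6.04 to 6.23 on those labelled WT. These levels lie below the array medians of 6.35 to 6.46. Plin2, a coat protein of lipid droplets, was higher at 0.20 ± 0.07 (0.0331). In lipolysis, Pnpla2, the triglyceride lipase ATGL, was at 10.49 to 10.72 on the arrays labelled KO and 10.94 to 11.63 on those labelled WT (-0.58 ± 0.10, 0.000472). G0s2, its inhibitor, was higher at 0.45 ± 0.12 (0.0126), and Mgll, the monoglyceride lipase, at 0.37 ± 0.10 (0.00989). Of the 5 lipolysis genes 0 were higher and 2 lower with the adipocyte covariate, and 0 and 0 with the endothelial one.

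Around pyruvate dehydrogenase, the enzyme that Pdk4 restrains, 3 of 12 genes were higher and 1 lower, and 6 were higher and 0 lower once each array was centred on its median. With the adipocyte covariate 2 were higher and 0 lower, and the endothelial one gave the same counts. Pdp2, a phosphatase that turns the enzyme back on, was at 6.55 to 6.93 on the arrays labelled KO and 5.87 to 6.32 on those labelled WT (0.76 ± 0.08, 1.70-fold, adjusted p = 1.54e-05). Pdk2, another kinase of the complex, was higher at 0.29 ± 0.04 (0.000151), opposite to Pdk4, while Pdk1 (-0.08 ± 0.04, 0.12) and Pdk3 (0.01 ± 0.11, 0.944) did not pass. Pdhx, a binding subunit of the complex, was higher at 0.18 ± 0.06 (0.0225) and Pdha1, its catalytic alpha subunit, lower at -0.16 ± 0.04 (0.0113), a call that centring ended.

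The acetyl-CoA made by either route enters the tricarboxylic acid cycle, where 4 of 14 genes were higher and 0 lower, with a median of 0.09, beside 20.1% higher among all genes. With the adipocyte covariate 3 were higher and 0 lower, and with the endothelial one 1 and 0. Centring each array on its median gave 9 higher and 0 lower. The 4 without centring were Suclg2 (0.33 ± 0.07, adjusted p = 0.00245) and Suclg1 (0.20 ± 0.04, 0.00191) of succinyl-CoA synthetase, Idh2 (0.31 ± 0.04, 9.4e-05) and Idh3a (0.23 ± 0.04, 0.000952), both isocitrate dehydrogenases. Of the genes of ketone body use, 3 were measured and 0 passed in limma, with 1 at an unadjusted p under 0.05. Bdh1, which interconverts the main ketone bodies, was that gene (-0.17 ± 0.06, adjusted p = 0.0581), and Slc16a1 and Oxct1 differed by 0.07 and 0.02.

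For the 3 genes with the widest range over the 12 arrays, the genes with the most similar profile were looked up, as a description that follows the group difference. Likeness was the mean absolute difference of the profiles after each gene was centred on its own mean over the 12 arrays, compared over 19937 genes. Nearest to Pdk4, whose levels span 0.95, were Atg13 at 0.074, Anxa7 at 0.082 and Tnnt2 at 0.082, the last being cardiac troponin T, which is known from developing muscle. Nearest to Cpt2, whose levels span 0.79, were Hsd17b4 at 0.058, Vamp8 at 0.059 and Cotl1 at 0.061. Hsd17b4 is the peroxisomal gene described above. Nearest to Cpt1a, whose levels span 0.67, were Rin1 at 0.082, Rab31 at 0.090 and Fbxo17 at 0.091.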

How the data were processed

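Total RNA of quadriceps was hybridized to 12 Affymetrix Mouse Gene ST arrays, 6 labelled KO and 6 labelled WT. The authors extracted the images and made gene level values with Affymetrix software. The deposited values are read here as log2 levels, since their range shows that scale and the table states none. The summary method is not named in the sources, nor is a genome build. Of 35556 probe sets the platform annotation gave 21789 exactly 1 symbol, 1621 several and 12146 none listed, and symbols were updated through a RefSeq gene table (21698 matched). The brightest probe set stood for a gene.

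Differences were fitted with limma 3.58.1 in R 4.3.3, without covariates or further normalization, and adjusted by Benjamini-Hochberg over all 21789 probe sets at a threshold of 0.05. The fit was tested on simulated data. Pairs of genes and lists were compared with exact permutation tests over arrays. Genes named are the measured members, Cfl2, up to 4 genes past the threshold per list by size, others that a comparison turns on, and the 3 nearest profiles. Myh4, Actn3, Ucp1, Lep, Fabp3, Slc25a20, Acad9, Acadsb, Acat1, Acaa2, Ehhadh, Acacb, Foxo1, Esrra, Ppargc1b, Pdk1, Pdk3 and the ketone genes were added after their values were seen. The members and lists were chosen with earlier results of these data known. Alternatives were quantile normalization, median centring, a filter on dim probe sets, other variance models, array weights, covariates, a block for the array number, the methods' t-test and leaving out each array. Precision is limited by the number of arrays, and p-values describe the spread between these mice. Promoter sequences came from RefSeq on GRCm38.p6 and were matched by symbol.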

Additional observations from a re-analysis of the deposited data

Results flagged for a closer look

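Each group of 6 arrays was searched for an array far from the rest, by the gap to its nearest neighbour as a share of the range. Chance marks about 5% of such groups. Of 32 groups, 4 had such an array, and 0 of the 18 groups of the fatty acid genes did. All 4 were levels of marker lists. The adipocyte list was at 7.51 on the array labelled KO5, where the 5 others labelled KO were at 8.89 to 9.14. The same list was at 8.25 on the array labelled WT1, where the 5 others labelled WT were at 7.40 to 7.67. The endothelial list was at 9.58 on the array labelled WT6, below the others labelled WT at 9.84 to 9.98. The red blood cell list, of which 2 of 8 genes were measured, was at 10.39 on the array labelled WT4, against 7.12 to 8.17 on the others labelled WT. On WT6, Cpt2 (9.78) and Hadhb (10.99) had their lowest levels, and on WT4, Acadvl (10.53), Hadha (12.33) and Hadhb (11.44) had their highest.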

How the results depend on the processing

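Cpt2 and Pdk4 kept direction and threshold in 26 of 27 alternatives, Acadm and Acadl in 25. Cpt1a passed the threshold in 10, with p of 0.0194 to 0.0492, adjusted except in the unadjusted t-test (0.0381). With the endothelial level as a covariate 0 members, 12 of 119 pathway genes and 1358 probe sets passed, with the adipocyte level 24 pathway genes and 2811 probe sets, and with the glucocorticoid and fasting level 26 and 3008. Hadha turned to 0.02 under median centring and 0.03 with the endothelial covariate, and Hadhb to 0.01 with the adipocyte one. Why these moved was not tested. Leaving out 1 array at a time gave 4 to 5 members, 48 to 58 pathway genes and 5924 to 7155 probe sets past the threshold. Cpt1a was the member gained (without KO4, KO6, WT2 or WT6). The red blood cell list differed by 0.22 to 0.87, and by 0.87 without WT4 (exact p adjusted to 0.013). The methods' t-test gave 9003 probe sets unadjusted and 6342 after Benjamini-Hochberg.

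The study describes 6 pairs of knockout and littermate mice, but the labels do not say whether equal numbers mark a pair. Same-numbered arrays correlated at -0.22 to 0.17, and only 2 of 6 arrays labelled KO were closest to their own number. This cannot decide the question, since littermates need not be alike in these values. Numbers were therefore used only in an alternative fit. With the replicate block 4 members, 49 pathway genes and 6074 probe sets passed. Acadm minus Acadl (0.34) and Acadm minus Acadvl (0.27) then had an adjusted exact p of 0.0625, where the smallest raw p is 0.0312. The log2 values carry no detection calls, so background could not be set against dim genes.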
